A study of Mus musculus with 9 samples.

Results

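The colony-stimulating factors and their receptors were taken as 8 genes, Csf1, Csf2, Csf3, Csf1r, Csf2ra, Csf2rb, Csf2rb2 and Csf3r, out of 55401 genes measured by RNA-seq. They were picked by symbol, with earlier results of these data known, and no measured threshold enters the choice. The cells were RAW264.7, a mouse macrophage line established from an Abelson murine leukemia virus-induced tumor of a male mouse and labelled wild type. One group received DMSO, the vehicle. The second received DMSO and LPS, a bacterial endotoxin, and is called LPS. The third received LPS and skatole, an indole that gut bacteria make from tryptophan, and is called LPS + Ska; its label does not name DMSO. Each group had 3 samples, numbered 5, 6 and 7, and the labels give 24 h of treatment, while the methods section of the study gives another duration. RAW264.7 is a single transformed line, so it stands for a macrophage in culture and not for a tissue. Nothing in the labels says that the samples were separate cultures, so the p-values measure only the spread between these samples, which may be technical.

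Colony-stimulating factors are secreted proteins that control the survival, growth and activity of myeloid cells. Csf1 encodes M-CSF, which acts on Csf1r, a receptor tyrosine kinase that macrophages depend on. Csf2 encodes GM-CSF, which binds the ligand-specific alpha chain Csf2ra together with the beta chain Csf2rb, and the beta chain carries the signal through Jak2 and Stat5. Csf2rb2 is the second beta chain of the mouse and serves IL-3. Csf3 encodes G-CSF, the factor for neutrophil production, and Csf3r is its single-chain receptor.

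Values are TPM, transcript abundances on a common total, which are scaled for gene length and allow levels of different genes to be compared. TPM keep no sequencing depth, so the depth behind each value is unknown and no counting interval could be given. In LPS and in LPS + Ska, the replicate 5 column equalled the mean of the replicate 6 and 7 columns, within 1e-05 TPM, in 17950 of 17950 and 17658 of 17658 genes with no 0. In DMSO this held for 10 of 15721 genes. No more than 2 of the 3 values per gene can thus be independent there, and the spread rests on fewer measurements than n = 3. The macrophage label was met in part: 8 of 10 had a group mean of at least 1 TPM in each group, while Mertk was listed at 0 in all 9 columns and Mrc1 reached at most 0.134 TPM. Summed macrophage marker TPM ran from 11350 to 12219 in DMSO, from 6603 to 7065 in LPS and from 13039 to 13275 in LPS + Ska, most of it Lyz2. Of 10 neutrophil markers, 7 were at 0 in all 9 columns, and the list summed to at most 3.55 TPM. Osteoclast markers, which macrophage lines can express, summed to 65.5 to 76.7 TPM in DMSO, 93.0 to 103 TPM in LPS and 81.7 to 91.8 TPM in LPS + Ska, with Calcr at 0 throughout. They did not move together. From DMSO to LPS, mean Acp5 went from 15.0 to 44.8 TPM and Ctsk from 0.436 to 1.55 TPM. Dcstamp went from 50.3 to 49.1 TPM and Ocstamp from 4.54 to 2.33 TPM. Lists for dendritic cells (at most 1.79 TPM), fibroblasts (at most 0.462 TPM) and T and B cells (at most 0.672 TPM) were near 0. The part of these markers in the results below was not tested. In bulk RNA, fewer cells of a type and less RNA per cell cannot be told apart.

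The regions around the gene starts are shown for the 3 members that had both a RefSeq promoter window and a match to an NF-kB or antioxidant response motif; NF-kB is the main inducer of cytokine genes downstream of LPS. RefSeq windows, 250 bases before to 50 after the gene start, were used for 5 of the 8 members. No window of Csf1r, Csf2rb or Csf3 was scanned, so nothing is said of motifs in those genes. Each is printed 5′ to 3′ on the strand of its gene, in GRCm38.p6, and capitals mark the motif match. The Csf1 window is chr3:107760420-107760719 on the minus strand, the Csf3r window chr4:126024409-126024708 on the plus strand and the Csf2 window chr11:54249850-54250149 on the minus strand.
Csf1: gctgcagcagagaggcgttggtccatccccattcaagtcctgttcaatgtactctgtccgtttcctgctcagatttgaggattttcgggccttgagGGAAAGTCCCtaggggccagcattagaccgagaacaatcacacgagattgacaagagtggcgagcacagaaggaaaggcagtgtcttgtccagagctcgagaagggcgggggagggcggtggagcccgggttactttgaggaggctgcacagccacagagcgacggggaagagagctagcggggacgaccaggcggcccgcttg
Csf3r: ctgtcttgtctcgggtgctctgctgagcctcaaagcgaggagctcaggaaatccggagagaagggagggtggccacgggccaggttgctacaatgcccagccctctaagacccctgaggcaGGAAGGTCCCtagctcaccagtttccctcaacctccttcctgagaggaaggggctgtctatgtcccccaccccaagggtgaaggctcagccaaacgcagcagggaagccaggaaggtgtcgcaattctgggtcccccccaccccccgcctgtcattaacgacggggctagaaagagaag
Csf2: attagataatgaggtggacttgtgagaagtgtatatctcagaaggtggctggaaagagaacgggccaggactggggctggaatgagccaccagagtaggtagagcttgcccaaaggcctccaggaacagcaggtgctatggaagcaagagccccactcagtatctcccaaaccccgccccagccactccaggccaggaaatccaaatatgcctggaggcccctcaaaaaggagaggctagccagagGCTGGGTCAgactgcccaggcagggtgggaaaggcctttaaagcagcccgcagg
The capitals in Csf1, at -154 from the start, read GGGACTTTCC on the opposite strand, and those in Csf3r, at -129, read GGGACCTTCC; both match the NF-kB consensus, which 8.46% of 32851 promoter windows held. The capitals in Csf2, at -4, read TGACCCAGC on the opposite strand and match the antioxidant response core TGACNNNGC, held by 12.4% of windows. No AP-1 motif (TGANTCA, in 7.81% of windows) and no AhR core (GCGTG, 32.4%) lay in these 5 windows on either strand, the ETS core GGAAGT (23.8%) was found at +27 in Csf2rb2, and Csf2ra held no match to any of the 5. The RefSeq start of Csf2 lies 232 bases upstream of the start in the GENCODE annotation, and that of Csf3r 109 bases downstream. The windows thus need not centre on the start used by these cells. The Csf2 window ends before the GENCODE start, at chr11:54249667, is reached. Its match and its lack of other matches therefore do not describe the bases next to that start. A match is a description of letters and not of binding.

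**Figure D1:**
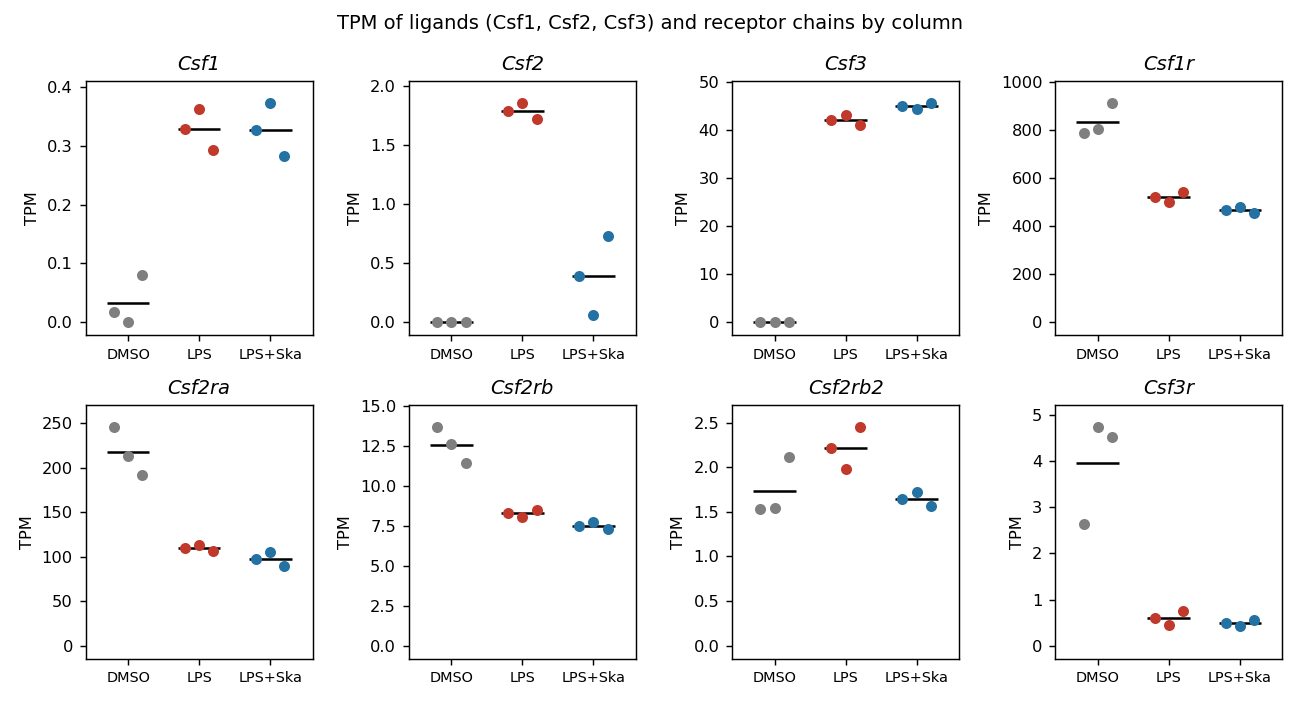
TPM of each of the 8 genes (y axis, TPM, scale differs by panel) in the 9 columns, grouped as DMSO, LPS and LPS + Ska; each point is 1 column and the line is the group mean. Csf3 stood at 0 in DMSO and above 41 TPM in both LPS groups, and Csf1r fell from 788 TPM or more to 543 TPM or less.

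Among the ligands, Csf3 was the one with the largest level, and it was seen with LPS but not in DMSO. Csf3 (ENSMUSG00000038067, chr11:98701263-98703629, plus strand, mm10) was listed at 0 TPM in all 3 DMSO columns. It was at 42.1, 43.1 and 41.1 TPM in LPS, and at 45.1, 44.4 and 45.7 TPM in LPS + Ska, in the order of replicates 5, 6 and 7. The LPS + Ska columns thus sat just above the LPS columns, with no overlap. Against DMSO, where no fold can be given, the limma fit on log2(TPM + 1) gave adjusted p = 1.6e-10 for LPS and 1.4e-10 for LPS + Ska. Csf3 passed the filter of a mean of 1 TPM through the LPS groups alone, so a difference from DMSO was built into its being tested. Between LPS + Ska and LPS the log2 difference was 0.09 ± 0.07 (SE), with a 95% interval from -0.07 to 0.26 and limma adjusted p = 0.36. Over 15 alternatives the limma adjusted p ran from 0.071 to 0.61. The lowest came with median-ratio scaling, where the difference was 0.19.

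Csf2 was higher with LPS than with DMSO, and lower with LPS + Ska than with LPS. Csf2 (ENSMUSG00000018916, chr11:54247271-54249667, minus strand) was listed at 0 TPM in all DMSO columns, at 1.79, 1.86 and 1.72 TPM in LPS, and at 0.393, 0.0619 and 0.725 TPM in LPS + Ska. Every LPS + Ska column lay below every LPS column, and the LPS + Ska columns differed more among themselves than those of LPS. Its mean over all columns was under 1 TPM, so it was not tested in the filtered fit. It stands beside the others from a fit with no filter on 25181 genes, those above 0 in some column. Csf2 met this through the LPS groups alone, so a difference from DMSO was built into its being tested. In that fit it was called higher with LPS than with DMSO (limma adjusted p = 3.4e-04), beside 7.23% of genes called higher. It was called lower with LPS + Ska than with LPS, at a log2 difference of -1.03 ± 0.16 (SE) and limma adjusted p = 0.0045, beside 3.59% of genes called lower. That call held in every alternative tried on this fit, with limma adjusted p from 0.0013 to 0.030. Among them, adjusted p alone reuses the same p-value. Those that leave out a tied column remove no independent measurement. LPS + Ska against DMSO was not called (adjusted p = 0.062), beside 6.31% of genes called higher, but was with a pseudocount of 0.1 (0.023) and without LPS + Ska replicate 6 (0.0029). The ratio of Csf2 to Csf3 TPM was 0.0417 to 0.0430 in LPS and 0.00139 to 0.0159 in LPS + Ska. An antisense gene that overlaps Csf2, Gm12223, was at 0 in every group, and the next gene, Il3, which encodes the related factor IL-3, lies 15635 bases away and was listed at 0 throughout.

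Csf1 stayed low. Csf1 (ENSMUSG00000014599, chr3:107741048-107760469, minus strand) was at 0.0170, 0 and 0.0793 TPM in DMSO, at 0.328, 0.364 and 0.293 TPM in LPS, and at 0.328, 0.373 and 0.282 TPM in LPS + Ska. All 6 columns with LPS were above all DMSO columns, and LPS + Ska overlapped LPS. In the fit with no filter the log2 difference between LPS and DMSO was 0.36 (adjusted p = 4.0e-04), short of the 1.5-fold limit that a call needs on this scale; with a pseudocount of 0.1 it was 1.74 and was called. Between LPS + Ska and LPS it was -0.00 (adjusted p = 1). Il34, which encodes the other ligand of Csf1r, had mean values of 0.0706 TPM in DMSO, 0.0414 TPM in LPS and 0.433 TPM in LPS + Ska and was too low to be tested.

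To place the ligands that were listed at 0 in DMSO, all genes at 0 in every DMSO column and at 1 TPM or more in every LPS column were gathered. There were 37, and Csf3 had the highest mean TPM in LPS, while Csf2 ranked 26. In LPS + Ska, 28 of the 37 were lower in every column, 6 overlapped and 3 were higher in every column, namely Csf3, Gm14275 and Gm5483. The list was chosen on the LPS columns, so lower values in the other group are favoured by its choice. Columns of both groups are tied, so a lack of overlap rests on fewer independent values than columns. For some of the genes, such as Gm28048 at 27.4 TPM, the LPS columns were identical and show no spread. The ratio of mean TPM in LPS + Ska to that in LPS had a median of 0.291; it was 1.07 for Csf3 (rank 4) and 0.220 for Csf2 (rank 20). Nos2, the inducible nitric oxide synthase, went from 37.5 to 28.5 TPM. Chosen on the LPS + Ska columns in place of LPS, the list held 32 genes, 9 of them shared, and Csf3 again had the highest mean.

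**Figure D2:**
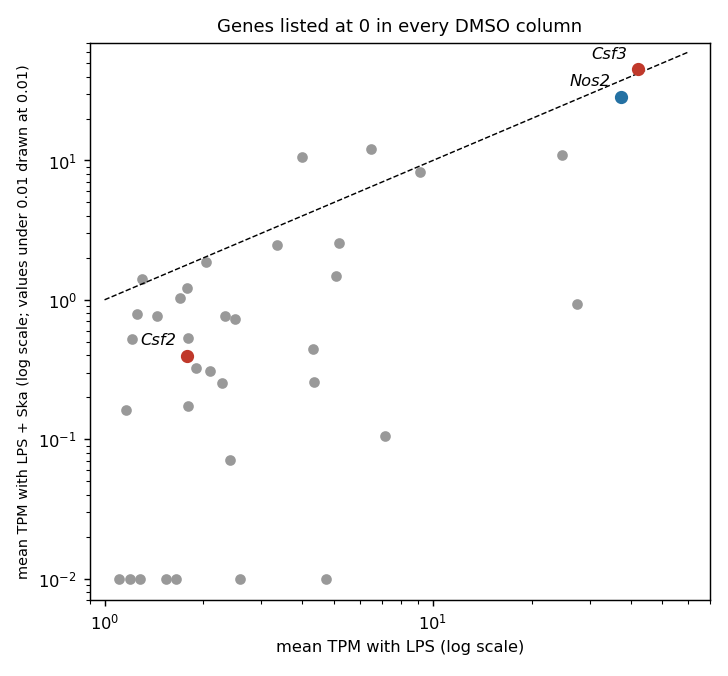
Mean TPM in LPS (x axis, log scale) against mean TPM in LPS + Ska (y axis, log scale, values under 0.01 TPM drawn at 0.01) for the 37 genes at 0 in every DMSO column and at 1 TPM or more in every LPS column; each point is 1 gene and the line marks equal values. Csf3 lies at the top, just above the line, and Csf2 lies below it with most of the others.

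The receptor chains with the highest levels fell with LPS. Csf1r (ENSMUSG00000024621) was at 788, 804 and 912 TPM in DMSO, at 522, 500.1 and 543 TPM in LPS and at 467, 479 and 454 TPM in LPS + Ska. The 3 groups did not overlap. By mean TPM it ranked 146 of all genes in DMSO, 235 in LPS and 273 in LPS + Ska. Its log2 difference between LPS and DMSO was -0.67 ± 0.06 (SE; limma adjusted p = 2.0e-05) and between LPS + Ska and DMSO -0.83 (adjusted p = 4.5e-06). Between LPS + Ska and LPS it was -0.16 ± 0.06 (95% interval -0.30 to -0.02), which had an unadjusted p of 0.032 and a limma adjusted p of 0.090, and did not pass. The adjusted p of that difference ran from 0.039 to 0.41 over 15 alternatives, and none reached the fold limit. The highest came with median-ratio scaling, where the difference was -0.06. Without that scaling, the median over all tested genes in this comparison was -0.10.

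Csf2ra and Csf3r were also lower with LPS. Csf2ra (ENSMUSG00000059326, chr19:61223957-61228429, minus strand), the alpha chain that gives the GM-CSF receptor its specificity, was at 246, 214 and 192 TPM in DMSO, 109.8, 113 and 106 TPM in LPS and 97.5, 106 and 89.1 TPM in LPS + Ska. It was lower with LPS by a log2 difference of -0.97 ± 0.09 (SE; limma adjusted p = 2.3e-05) and with LPS + Ska by -1.15 (adjusted p = 6.9e-06). The groups did not overlap, though the highest LPS + Ska column lay next to the lowest LPS column. The difference between LPS + Ska and LPS was -0.17, with a 95% interval from -0.38 to 0.04 (adjusted p = 0.20), and -0.07 with median-ratio scaling. Csf3r (ENSMUSG00000028859, chr4:126024550-126044440, plus strand), the G-CSF receptor, was at 2.65, 4.75 and 4.51 TPM in DMSO, 0.597, 0.443 and 0.752 TPM in LPS and 0.486, 0.420 and 0.552 TPM in LPS + Ska. Every column with LPS lay below every DMSO column, and the 2 LPS groups overlapped. Csf3r was lower with LPS by -1.61 ± 0.20 (SE; adjusted p = 9.9e-05) and with LPS + Ska by -1.71 (adjusted p = 5.8e-05), and the difference between these was -0.10, with an interval from -0.54 to 0.34 (adjusted p = 0.73). With a pseudocount of 0.1 the Csf3r difference for LPS was -2.52. The G-CSF receptor was thus at its lowest in the groups where its ligand, Csf3, was measured.

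Of the beta chains, Csf2rb was called in 1 of the 3 comparisons and Csf2rb2 in none. Csf2rb (ENSMUSG00000071713, chr15:78325752-78353847, plus strand) was at 13.7, 12.6 and 11.4 TPM in DMSO, 8.26, 8.03 and 8.50 TPM in LPS and 7.50, 7.75 and 7.26 TPM in LPS + Ska, without overlap between groups. Its log2 difference for LPS was -0.55 (limma adjusted p = 6.7e-04), inside the fold limit and so not called; with a pseudocount of 0.1 (-0.59) or without DMSO replicate 7 (-0.61) it was called. For LPS + Ska against DMSO it was -0.67 (adjusted p = 1.7e-04) and called, but not with median-ratio scaling (-0.50). Between LPS + Ska and LPS it was -0.12 (limma adjusted p = 0.34), and -0.04 with median-ratio scaling. Csf2rb2 (ENSMUSG00000071714, chr15:78282507-78305721, minus strand) was at 1.54, 1.55 and 2.11 TPM in DMSO, 2.22, 1.98 and 2.46 TPM in LPS and 1.64, 1.72 and 1.56 TPM in LPS + Ska. Its DMSO and LPS columns overlapped, and LPS + Ska lay below LPS. No comparison of Csf2rb2 passed: the differences were 0.24 for LPS against DMSO (adjusted p = 0.17), -0.28 for LPS + Ska against LPS (95% interval -0.60 to 0.04, adjusted p = 0.17) and -0.04 for LPS + Ska against DMSO (adjusted p = 0.82). The ratio of Csf2rb to Csf2rb2 was 5.39 to 8.91 in DMSO, 3.46 to 4.06 in LPS and 4.49 to 4.64 in LPS + Ska. The 2 beta chain genes lie 20030 bases apart on opposite strands. Of the 50-base stretches of the longest Csf2rb transcript, 18.4% also occur in a Csf2rb2 transcript. At 100 bases the share was 6.96% and at 150 bases 3.47%. How reads were split between the 2 genes is thus uncertain.

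**Figure D3:**
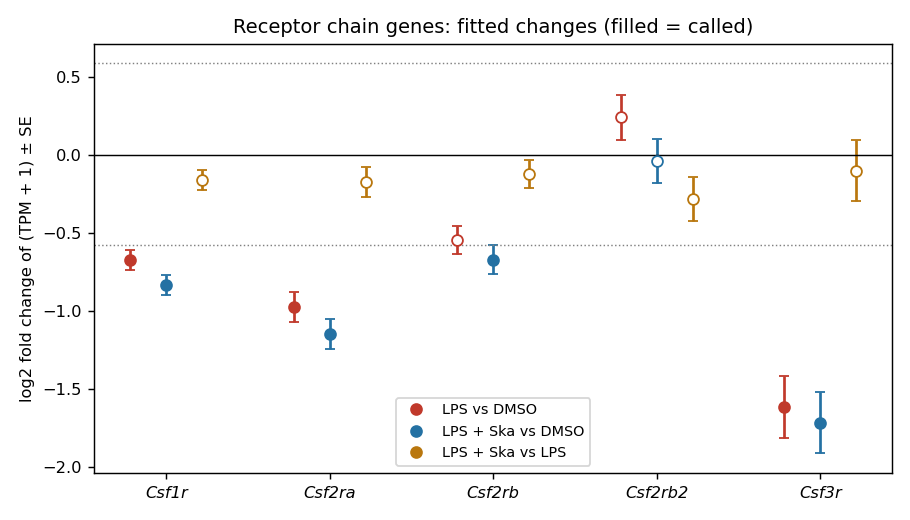
Fitted log2 fold change of TPM + 1 (y axis) with its SE for the 5 receptor chain genes (x axis) in each of the 3 comparisons. Filled points passed both the adjusted p and the fold limit. Csf3r shows the largest falls, from -1.61 to -1.71, and no point for LPS + Ska against LPS is filled.

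Of the 8 members, 6 passed the filter and were tested. Csf3 passed it through the LPS groups alone, so its calls against DMSO were built into its being tested. For LPS against DMSO, 1 was called higher (Csf3) and 3 lower (Csf1r, Csf2ra and Csf3r), beside 32.7% of all tested genes called, 12.7% higher and 20.0% lower. For LPS + Ska against LPS, none of the 6 was called by limma, 1 had an unadjusted p under 0.05, and 9.49% of all tested genes were called, 3.35% higher and 6.14% lower. For LPS + Ska against DMSO, 1 was called higher and 4 lower, beside 36.7% of all tested genes called, 11.4% higher and 25.3% lower. The last 2 comparisons each share samples with the first and are not independent of it. The median log2 difference over all tested genes was -0.07, -0.10 and -0.18 in these comparisons, and with median-ratio scaling it was 0.01, -0.00 and -0.01. Under that scaling Csf1r, Csf2ra and Csf3r stood at -0.65, -0.96 and -1.60 for LPS + Ska against DMSO and were still called lower.

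The order of levels changed with treatment. In DMSO, the mean TPM ran Csf1r, Csf2ra, Csf2rb, Csf3r, Csf2rb2 and Csf1, with Csf2 and Csf3 at 0, and no neighbours above 0 overlapped. In LPS, Csf3 took the place after Csf2ra, Csf2 came after Csf2rb2, and Csf3r was above Csf1 alone, again without overlap. In LPS + Ska, Csf2 overlapped both Csf3r and Csf1, and the other neighbours were apart. The alpha chain Csf2ra was above the beta chain Csf2rb throughout, at a ratio of 16.9 to 18.0 in DMSO, 12.5 to 14.1 in LPS and 12.3 to 13.7 in LPS + Ska. Csf1r was 3.20 to 4.75 times Csf2ra in DMSO, 4.41 to 5.12 times in LPS and 4.53 to 5.10 times in LPS + Ska.

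The wider pathway was described by a list of 43 genes, chosen with earlier results known, of which 36 were tested. For LPS against DMSO, 7 were called higher and 12 lower, beside 12.7% and 20.0% of all tested genes, with a median log2 difference of -0.34 against -0.07 over all genes. For LPS + Ska against LPS, 1 was called higher and 1 lower, beside 3.35% and 6.14% of all tested genes, with a median of -0.19 against -0.10. For LPS + Ska against DMSO, 3 were called higher and 17 lower, beside 11.4% and 25.3%, with a median of -0.46 against -0.18. None of the 5 other ligands and receptor chains could be tested, and Il3, Il3ra and Il5ra were listed at 0 in every column, so the alpha chains that pair with Csf2rb for IL-3 and IL-5 were not seen.

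Both calls of the list between LPS + Ska and LPS, 1 higher and 1 lower, fell among the 6 tested regulators of Csf1r transcription. Over all tested genes, 3.35% were called higher and 6.14% lower. Cebpa, a myeloid transcription factor, fell with LPS by -2.29 and had mean values of 14.3 TPM in LPS and 21.9 TPM in LPS + Ska, a log2 difference of 0.59 (limma adjusted p = 0.0079). Without LPS replicate 6 (0.47) or without LPS + Ska replicate 6 (0.55) that difference was inside the fold limit. Runx1, which binds the Csf1r enhancer, had means of 27.7 TPM in LPS and 17.9 TPM in LPS + Ska, a difference of -0.60 (adjusted p = 5.7e-04). It was inside the fold limit with median-ratio scaling (-0.51) and without replicate 7 of either group (-0.57 in both). Spi1, which encodes PU.1 and was named after its values were seen, went from 408 TPM in DMSO to 233 TPM in LPS and 230.2 TPM in LPS + Ska. Of the 6 regulators tested, 1 was called higher with LPS (Ets2, 1.47) and 3 lower (Spi1, Runx1 and Cebpa), beside 12.7% and 20.0% of all tested genes.

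Among the 21 kinases, adaptors and phosphatases tested, 4 were called higher with LPS (Jak2, Stat3, Gab2 and Socs3) and 7 lower, beside 12.7% and 20.0% of all tested genes. Gab2 was inside the fold limit without DMSO replicate 6 (0.52) or without LPS replicate 6 (0.58). The largest change was in Fes, a myeloid tyrosine kinase, which went from 136 TPM in DMSO to 27.5 TPM in LPS, a log2 difference of -2.26, and was at 37.7 TPM in LPS + Ska. Jak2, the kinase bound to the beta chain and to Csf3r, was higher by 0.64 (adjusted p = 2.0e-04), and Socs3, an inhibitor of Csf3r signalling, by 0.70 (adjusted p = 9.0e-04). None of the 21 was called between LPS + Ska and LPS by limma, beside 3.35% of all tested genes called higher and 6.14% lower. The difference of Fes there was 0.44 (limma adjusted p = 0.0019), inside the fold limit. Of the 3 proteases, none was called with LPS, beside 12.7% and 20.0% of all tested genes. Furin, a proprotein convertase, had the largest differences among them, -0.52 with LPS and -0.45 between LPS + Ska and LPS. Of the 6 RNA-binding proteins, which act on cytokine mRNA, 2 were called higher and 2 lower with LPS, again beside 12.7% and 20.0%. Zfp36, which speeds the decay of Csf2 and other cytokine mRNAs, went from 144.5 TPM in DMSO to 70.1 TPM in LPS and 51.0 TPM in LPS + Ska, and Zfp36l1 had the largest difference between the last 2 groups, -0.57 (adjusted p = 0.0068), inside the fold limit.

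**Figure D4:**
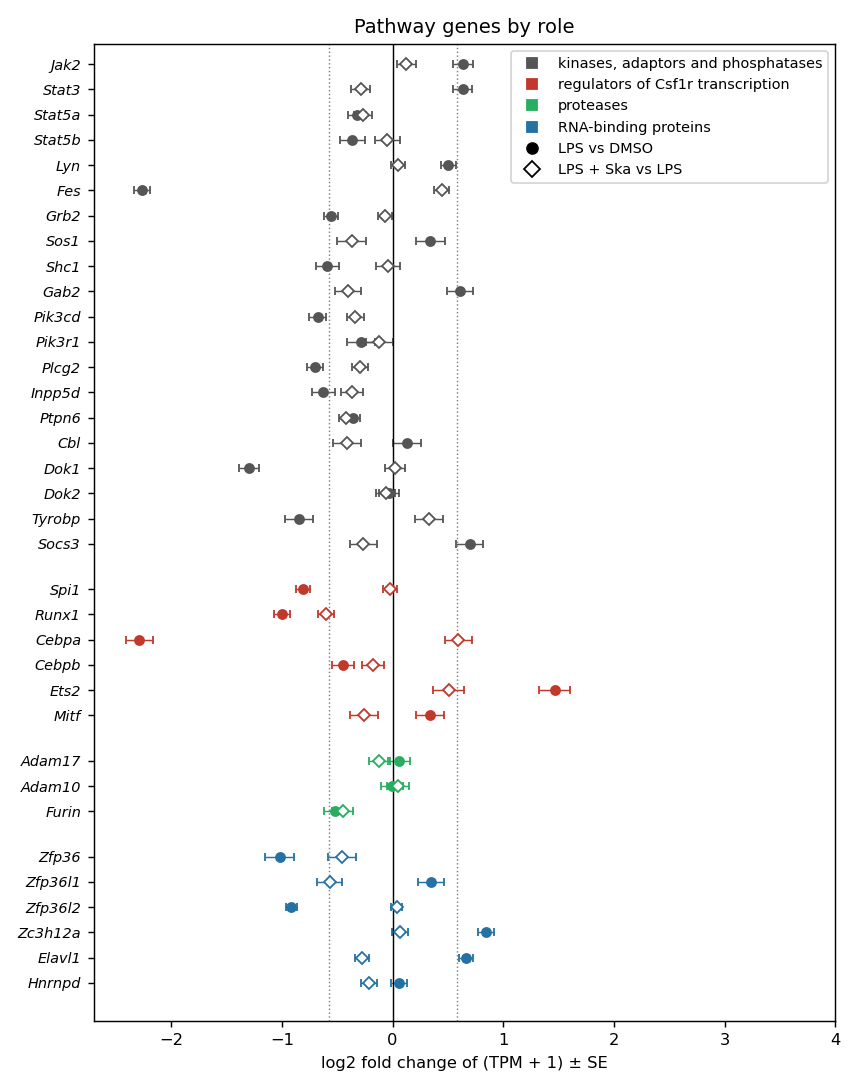
Fitted log2 fold change of TPM + 1 (x axis) with its SE for tested pathway genes, ordered by role; filled circles are LPS against DMSO, open diamonds LPS + Ska against LPS, and dotted lines the fold limits. Cebpa and Fes lie farthest to the left with LPS, at -2.29 and -2.26, and the diamonds lie between -0.60 and 0.59.

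Genes outside the family were ranked by how closely their profile followed each member over the 9 columns, as the root mean square difference of log2(TPM + 1) after centring. The closest to Csf1r was Nagpa (0.038, Pearson r = 0.995), and to Csf2ra Cc2d1b (0.068, r = 0.991). Ptdss2 was closest to Csf2rb (0.039, r = 0.994) and Ddx21 to Csf2rb2 (0.037, r = 0.972). For Csf3 the closest was Nos2, at 0.29 (r = 0.996), and for Csf3r the predicted gene Gm45606, at 0.13 (r = 0.993). These are descriptions over columns that share their groups and their tied values.

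The genes beside Csf3 did not share its pattern. Psmd3, 5283 bases away, had mean values of 183 TPM in DMSO, 202 TPM in LPS and 166 TPM in LPS + Ska, and Med24, 961 bases away, had 47.1, 43.5 and 35.8 TPM. Neither was at 0 in DMSO. Mrps15, which lies 2484 bases from Csf3r, had means of 153, 106 and 101 TPM.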

How the data were processed

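RNA from RAW264.7 cells was sequenced from libraries made with a kit for which the sources do not state strand. The authors deposited TPM per Ensembl gene for 55401 genes in 9 samples; 55141 carried a symbol. The submitters' processing notes name fastp 0.20.1, HISAT2 2.2.1, StringTie 2.0 and mm10; the annotation is not given in the sources used here. Each column summed to between 999895 and 1000145 TPM, so depth is not kept.

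The 12819 genes averaging 1 TPM or more were fitted on log2(TPM + 1), pseudocount 1, with limma 3.58.1 in R 4.3.3 over all 9 columns, with an intensity trend and no covariate. Fold changes are on that scale and understate those of low genes. A gene was called at a Benjamini-Hochberg adjusted p under 0.05 over all tested genes and a fold change above 1.5 or under 0.67. LPS vs DMSO, LPS + Ska vs LPS and LPS + Ska vs DMSO were compared. Also tried were no filter, a mean of at least 5 TPM, a pseudocount of 0.1, median-ratio scaling, a replicate block, the compared groups alone, adjusted p alone, the values recovered from the tied columns, and leaving out each replicate; the alternatives applied to Csf1 and Csf2 without the filter were chosen after seeing the data. Leaving out 1 of the tied columns of LPS or LPS + Ska removes no independent measurement. The fit with no filter still required a non-zero value in some column. In tied genes the recovered values were the midpoints between replicate 5 and each other column of the group. They rest on an untested assumption of how the columns were made and need not be the original measurements. The fits were tested on simulated data.

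The members and lists were chosen with earlier results of these data known. Named were all members, pathway genes called between LPS + Ska and LPS or with the largest change in their role, and the 2 tested genes closest in profile to each member, of which the closest is printed; 1 pathway gene that this rule names is counted but not reported here, and Spi1, Jak2, Stat3, Gab2, Socs3 and Ets2 were named after their values were seen. Gene positions are from GENCODE vM21 on the same assembly, and figures were drawn with matplotlib 3.10.9. Deviations from the group means of same-numbered samples correlated at 0.38, 0.15 and 0.13 between LPS and LPS + Ska, whose columns are tied in the same form, and between -0.03 and 0.08 in the pairs with DMSO; the labels name no shared culture or day.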

Additional observations from a re-analysis of the deposited data

How the results depend on the processing

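With no filter, the members called higher for LPS vs DMSO came to 2 and those called lower for LPS + Ska vs LPS to 1, Csf2 in each case. Csf2 entered that fit through the LPS groups alone, so a difference from DMSO was built in. With adjusted p alone, without the fold limit, all genes called came to 3354 higher and 4380 lower for LPS vs DMSO, 1139 and 2524 for LPS + Ska vs LPS, and 2915 and 5201 for LPS + Ska vs DMSO, against 1630 and 2559, 429 and 787, and 1457 and 3243. With a mean of at least 5 TPM, 516 genes were called lower for LPS + Ska vs LPS. With median-ratio scaling the calls split into 588 higher and 543 lower for LPS + Ska vs LPS and 2153 and 2295 for LPS + Ska vs DMSO. Differences near 0 changed sign: with median-ratio scaling, Csf2rb2 for LPS + Ska vs DMSO was 0.0749, Spi1 for LPS + Ska vs LPS 0.0798 and Csf1 without the filter 0.0235. Leaving out each column in turn removes no independent measurement in LPS and LPS + Ska, where the columns are tied. These differences then ran from -0.0910 to 0.0575 for Csf2rb2, -0.0775 to 0.0403 for Spi1 and -0.0253 to 0.0242 for Csf1. The cause of these changes was not tested. In all, 171 of 180 counts of calls stayed within 1.5 times the reported count, and 881 of 927 values of single genes kept their direction and side of the threshold. With a replicate block, which takes the numbers as a pairing, the calls were 1649 higher and 2586 lower, 427 and 771, and 1469 and 3260, and no call of a member or of a named pathway gene changed. With the recovered values they were 1635 and 2532, 362 and 640, and 1455 and 3202. TPM keep no depth, so what depth limits in Csf1 and Csf2 cannot be given.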
